A study of Mus musculus with 18 samples.

Results

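The late step of retinal degeneration in mice that lack Rpe65 was examined by setting retinas of RPE65-/- mice at 6 months of age (retinas 4, 5 and 6) against retinas of RPE65-/- mice at 4 months (retinas 25, 31 and 33). These 6 arrays were taken by their titles from a series of 18 mouse expression arrays, with 3 arrays in each group of 1 genotype and 1 age. The 6 arrays of C57BL/6 retina at 4 months (retinas 14, 17 and 24) and 6 months (retinas 1, 2 and 3) served as the same step in age without the mutation, and the 6 arrays at 2 months entered the shared estimate of the spread. The labels named the mutant as RPE65-/- and the control as C57BL/6, with no statement of the strain background of the mutant, of littermates or of pooling. The design text called the 3 arrays of a group biological replicates. Total RNA was extracted with Trizol and labelled with biotin.

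RPE65 is the isomerohydrolase of the retinal pigment epithelium that makes 11-cis-retinol, the precursor of the light-sensitive chromophore of rods and cones. Without it the photoreceptors carry opsin without chromophore, cones are lost early, and rods degenerate slowly. The epithelium lies behind the neural retina and is partly carried along when a retina is dissected, so the Rpe65 signal in retinal RNA depends on the dissection as well as on the genotype.

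Each deposited value was a ratio. For 54.3% of the 45101 probe sets the median ratio over the 18 arrays was 1, so that a ratio of 1 is the level of the median array. The other probe sets had low signals and a divisor that was not their own median, so only ratios within such a probe set can be compared. Genes were measured by 1 probe set each, among probe sets with a median of 1, which left 11274 genes. Before the authors' scaling the median signal was 45.8, 36.1 and 39.4 on the RPE65-/- arrays at 6 months and 11.9, 11.8 and 11.7 at 4 months. The control arrays showed the same gap, at 41.3, 32.8 and 41.0 against 10.7, 14.3 and 9.8. The array batch was not named in the labels, and age and this difference in raw signal cannot be told apart within a genotype. The tissue matched its label on the 6 RPE65-/- arrays: all 15 measured rod genes, all 28 genes shared by rods and cones and all 14 Müller glia genes lay above the array's median signal on all 6, as did 8 of 13 cone genes, against 0 of 18 lens, 0 of 9 blood and 1 of 15 muscle genes. Of the pigment epithelium genes 13 of 17 also lay above it on all 6 arrays, and of the visual cycle genes 8 of 10. An array was called female where the log2 ratio of Xist was above 2. By this rule 1 of the 3 RPE65-/- arrays at 6 months (retina 6) was female and the other 5 RPE65-/- arrays were male. Of the control arrays, 3 of 3 at 6 months and 1 of 3 at 4 months were female. The mean log2 ratio of the lens genes was -1.44, -2.68 and -2.0 on the RPE65-/- arrays at 4 months and -4.98, -0.64 and -3.73 at 6 months, and those 2 ranges overlapped. In whole tissue, fewer cells of a type and less RNA per cell cannot be told apart.

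Rpe65 itself was read by a probe set below the limit on low values, whose ratios have no fixed relation to the median array. Its ratios were 0.780, 0.394 and 0.815 on the RPE65-/- arrays at 4 months and 0.156, 0.0348 and 0.0828 at 6 months. The control ratios were 2.49, 15.8 and 46.7 at 4 months and 12.5, 17.5 and 27.7 at 6 months. The RPE65-/- arrays lay below the controls at both ages, by a log2 difference of -7.89 ± 1.26 (SE) at 6 months (adjusted p = 0.00628, limma over all genes without the limit on low values) and -4.28 ± 1.26 at 4 months (adjusted p = 0.156). Within the mutant the 6-month arrays were all lower than the 4-month arrays, with a log2 change of -3.04 ± 1.26 that did not pass (adjusted p = 0.608).

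From 4 to 6 months only 2 of 11274 genes (0.0177%) changed in the RPE65-/- retina at an adjusted p below 0.05, and both rose. They were Pttg1, which encodes securin, the inhibitor of separase that holds sister chromatids together until anaphase, and Flt4, which encodes the receptor for VEGF-C and VEGF-D on lymphatic and some blood vessel endothelium. Both were lowest of all groups in RPE65-/- retina at 4 months and did not differ past the threshold from controls at 6 months. In C57BL/6 retina 0 genes passed for the same step in age (1399, or 12.4%, at an unadjusted p below 0.05, limma). The genotypes differed in their change for 1 gene (0.00887%), which was Pttg1. The tests were limma's moderated two-sided tests with Benjamini-Hochberg adjustment over all genes, with a mean for each of the 6 groups.

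The Pttg1 ratios on the RPE65-/- arrays at 4 months were 0.0146 in retina 25, 0.0186 in retina 31 and 0.0508 in retina 33. At 6 months they were 1.06 in retina 4, 0.680 in retina 5 and 1.21 in retina 6. The means were 0.0280 ± 0.0198 (SD, n = 3) and 0.984 ± 0.274 (SD, n = 3). The highest array at 4 months was far below the lowest at 6 months, as for 503 genes (4.46%) whose 3 arrays at 6 months all exceeded the 3 at 4 months. The log2 change was 5.32 ± 0.33 (SE), with an adjusted p of 4.66e-07 in limma.

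At 2 months the RPE65-/- ratios were 0.454, 0.408 and 0.409, between the levels at 4 and at 6 months. The 9 control arrays ran from 0.977 to 1.66 and did not overlap with any RPE65-/- array at 2 or 4 months. In controls the change from 4 to 6 months was 0.22 ± 0.33 on the log2 scale (adjusted p = 0.833, limma). The mutant's change exceeded it by 5.09 ± 0.47 (adjusted p = 0.000127, limma). Against controls of the same age the mutant was at -5.69 ± 0.33 at 4 months (adjusted p = 5.72e-08, limma) and at -0.59 ± 0.33 at 6 months (adjusted p = 0.519, limma). At 6 months all 3 RPE65-/- arrays were below the control range of that age, 1.28 to 1.66.

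Scaled to a common array median of 16.97, the signal behind Pttg1 lay above that median in every group except RPE65-/- at 4 months. The mutant's signal was 9.27, 11.8 and 32.2 at the earlier age and then 671, 431 and 770. Retinas 25 and 31 thus lay below the median, so the size of the change rests on low signals at 4 months. The array carried 3 probe sets for the gene that passed the limit on low values. The second (an _a_at set, whose probes can match several transcripts of a gene) read 0.0932, 0.0606 and 0.0461 at 4 months and 1.11, 0.512 and 1.12 at 6 months, a log2 change of 3.75 ± 0.28 (adjusted p = 9.19e-06 in a limma fit over 24440 probe sets). The third had a log2 difference of 1.88 ± 0.34 in the same direction that did not pass (adjusted p = 0.13, limma over probe sets). All 3 probe sets thus gave the same direction with sizes that differed by more than their errors. The probe set that stood for the gene was an _s_at set. An alternative left out every set with such a letter suffix as open to cross-hybridisation, and this included _a_at sets. Only the third then remained for this gene, and Pttg1 no longer passed (adjusted p = 0.101, limma). With sex as a covariate the change was 5.23, and with the lens list as a covariate 5.30, and both passed.

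The Flt4 ratios were 0.0776, 0.117 and 0.178 on the RPE65-/- arrays at 4 months and 0.731, 0.863 and 0.982 at 6 months. The 2 groups did not overlap. At 2 months the RPE65-/- arrays read 1.14, 1.06 and 0.822, and the 9 control arrays ran from 0.746 to 1.75, so the 3 arrays at 4 months stood below the other 15. The log2 change from 4 to 6 months was 2.86 ± 0.32 (adjusted p = 0.00084, limma) in the mutant and 0.05 ± 0.32 in controls. The difference between genotypes, 2.81 ± 0.45, did not pass (adjusted p = 0.0759, limma). Against controls of the same age, Flt4 was at -3.24 at 4 months (adjusted p = 2.13e-05, limma) and -0.42 at 6 months (adjusted p = 0.672, limma).

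Flt4 was a dim gene. Its scaled signal was 1.14, 1.73 and 2.61 in the mutant at 4 months and 10.7, 12.7 and 14.4 at 6 months, all below the common array median of 16.97. Adding 16 to the signal before the logarithm, which damps differences between low signals, brought the change to 0.68 and ended the call (adjusted p = 0.163, limma). Its other probe set, below the limit on low values, read 0.780, 0.160 and 0.0214 at 4 months and 0.734, 0.542 and 0.140 at 6 months, so its groups overlapped, and it was not tested. A fit on the 6 RPE65-/- arrays alone left neither Pttg1 nor Flt4 past the threshold, with an adjusted p of 0.0816 for each, and a trended and robust prior likewise, at 0.0685 for Pttg1 and 0.184 for Flt4.

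**Figure D1:**
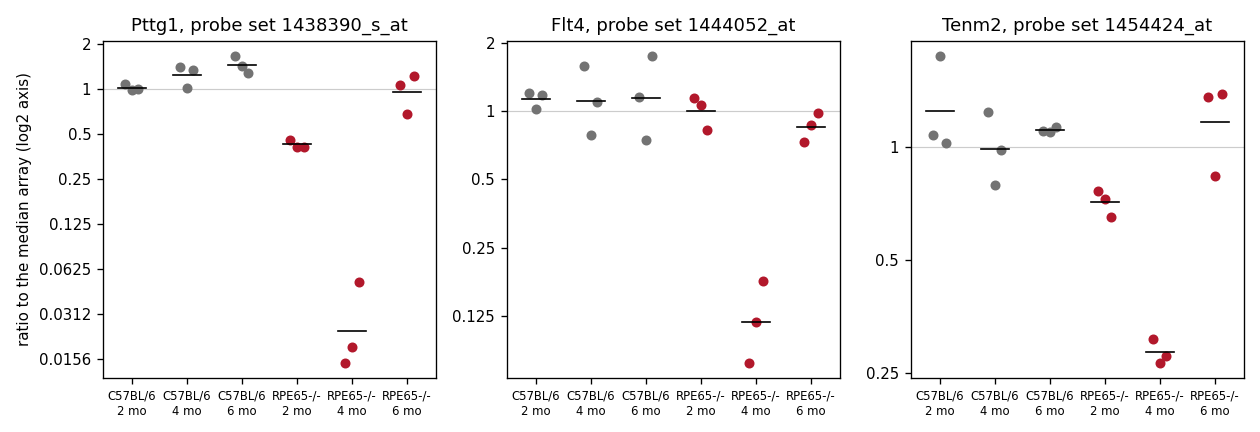
Ratio to the median array on a log2 axis for 1 probe set each of Pttg1, Flt4 and Tenm2, with 1 point per array (3 per group, grey for C57BL/6 and red for RPE65-/-) and a line at the geometric mean of each group. The RPE65-/- arrays at 4 months lie lowest in all 3 panels, at ratios of 0.0146 to 0.0508 for Pttg1, and the RPE65-/- arrays at 6 months lie near the controls.

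The promoters of the 2 genes that passed are shown because both genes rose between the same groups of arrays. Each window holds 250 bases before and 50 after the annotated start, from RefSeq on GRCm38.p6: Pttg1 at chr11:43425932-43426231 on the minus strand and Flt4 at chr11:49609429-49609728 on the plus strand, both 5′ to 3′ along the gene. Capitals mark the GC box GGGCGG on either strand.
Pttg1: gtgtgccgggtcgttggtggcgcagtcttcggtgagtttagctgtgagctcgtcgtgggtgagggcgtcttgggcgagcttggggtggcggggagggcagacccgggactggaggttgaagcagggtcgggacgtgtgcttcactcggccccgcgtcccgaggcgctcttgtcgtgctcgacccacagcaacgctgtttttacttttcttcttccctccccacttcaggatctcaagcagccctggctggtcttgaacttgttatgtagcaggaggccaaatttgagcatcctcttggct
Flt4: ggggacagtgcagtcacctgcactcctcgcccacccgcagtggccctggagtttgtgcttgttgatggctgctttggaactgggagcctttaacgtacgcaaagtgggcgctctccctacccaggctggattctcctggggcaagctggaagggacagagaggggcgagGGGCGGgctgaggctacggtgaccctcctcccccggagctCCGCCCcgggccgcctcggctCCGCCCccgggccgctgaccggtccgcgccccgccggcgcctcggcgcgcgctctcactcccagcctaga
The Flt4 window held 3 matches to the GC box and the Pttg1 window 0, while 35.7% of 32851 promoter windows of this length held at least 1. The CCAAT box (letters CCAAT) and the cell cycle element TTTGAA, searched on both strands, had 0 matches in either window, against 37.4% and 17.9% of all windows. No match overlapped another motif. The GC content was 60.3% for Pttg1 and 70.3% for Flt4. A match here is a description of the letters, and nothing about any factor was measured.

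Both genes lie on chromosome 11, and so does a further probe set that moved in the same way. In the fit over probe sets, added after the data were seen, 4 of 24440 (0.0164%) passed: 2 for Pttg1, 1 for Flt4 and 1 for Tenm2, which encodes teneurin-2, a synaptic adhesion protein. That Tenm2 probe set read 0.308, 0.266 and 0.278 on the RPE65-/- arrays at 4 months and 1.36, 0.836 and 1.38 at 6 months, with no overlap. Its log2 change was 2.04 ± 0.22 (adjusted p = 0.000969, limma over probe sets), and the difference from the controls' change, 1.87, did not pass (adjusted p = 0.0872). At 2 months it stood between, at 0.762, 0.725 and 0.652. The probe set with the highest signal for Tenm2 read 1.25, 0.938 and 1.16 at 4 months and 1.05, 0.9995 and 1.23 at 6 months, and its change of -0.03 ± 0.16 did not pass. The probe sets of Tenm2 therefore disagreed, and a level of the gene as a whole is not given.

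Along the chromosome, Tenm2, Pttg1 and Flt4 follow each other in that order, and 65 protein-coding genes lie between Pttg1 and Flt4. Of these, 19 were tested. None of the 19 reached even an unadjusted p below 0.05 from 4 to 6 months in the mutant (10.2% of all genes did), with a median log2 change of -0.01 and a range of -0.33 to 0.33. The nearest tested neighbours of Pttg1, Gabrb2 at -0.31 ± 0.18 and Slu7 at -0.01 ± 0.13, did not share its change. Over chromosome 11 as a whole, 84 of 905 tested genes (9.28%) had an unadjusted p below 0.05.

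The same stretch held 3 genes that differed between genotypes at both ages and not between ages. Thg1l, the enzyme that adds a guanosine to histidine tRNA, was at 2.12, 2.46 and 1.29 on the RPE65-/- arrays at 4 months and at 2.20, 2.62 and 2.21 at 6 months, against 0.230 to 0.708 on the 6 control arrays of those ages. Sox30, a transcription factor known from the testis, was at 1.74, 2.48 and 2.18 and then at 2.22, 1.81 and 1.87, against 0.0975 to 0.260. Lsm11, a subunit of the snRNP that processes histone mRNA, was at 1.35, 1.57 and 1.14 and then at 1.51, 1.36 and 1.43, against 0.350 to 0.834. Their log2 differences between genotypes at 4 months were 2.36 for Thg1l, 3.44 for Sox30 and 1.22 for Lsm11, with adjusted p of 4.75e-05, 0.0104 and 0.0123 in limma, where 367 genes (3.26%) passed. The control signals of Thg1l, 4.33 to 13.3 at these ages, and of Sox30, 3.74 to 9.99, lay below the common array median, so their differences rest on low signals in controls. These 3 are the only tested genes between Pttg1 and Flt4 that passed between genotypes at 4 months, and all 3 also passed at 6 months, where 267 genes (2.37%) did. Whether sequence differences between the mouse stocks affected any of these probe sets was not tested.

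**Figure D2:**
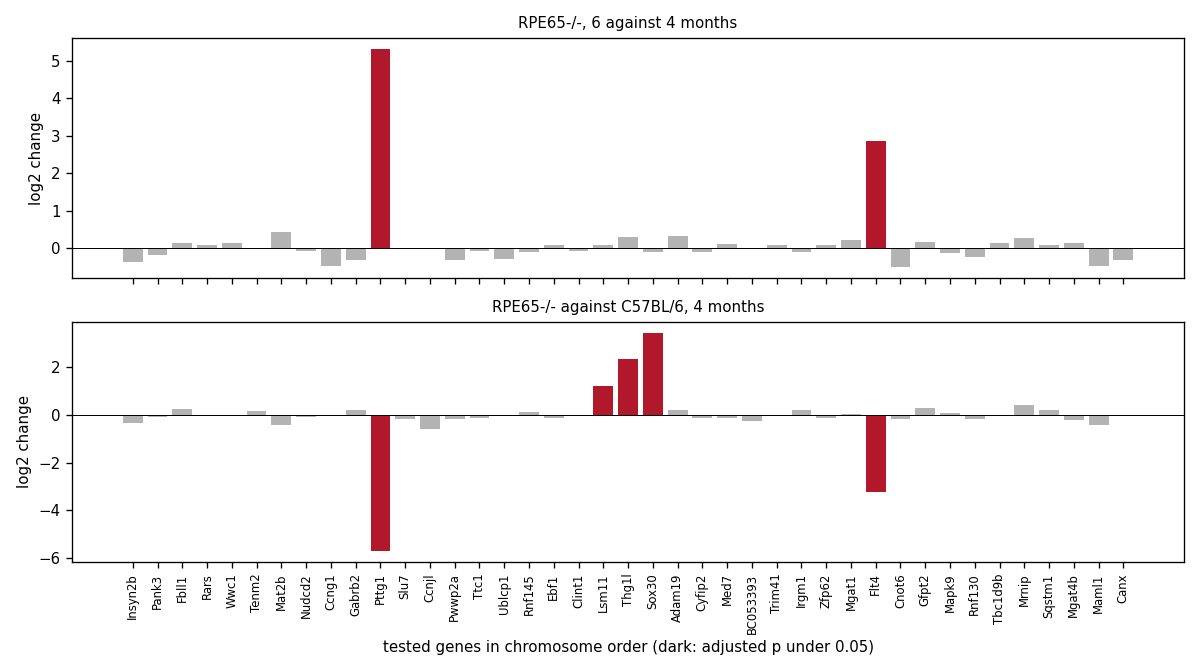
Log2 change of the tested genes from Insyn2b to Canx in their order on chromosome 11, for RPE65-/- at 6 against 4 months (upper panel) and for RPE65-/- against C57BL/6 at 4 months (lower panel), with dark bars for an adjusted p below 0.05 and 3 arrays per group. Pttg1 (5.32) and Flt4 (2.86) stand alone in the upper panel. Thg1l, Sox30 and Lsm11 are high only in the lower panel.

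Most cone genes were low in the mutant at both ages. Of 15 listed cone genes 13 were tested, and 0 passed from 4 to 6 months. Their median log2 change was -0.32, against -0.08 over all genes. Of the 13, 10 were below 0, beside 7390 of all 11274 genes. In C57BL/6 the median of the same 13 was -0.07. Without RPE65-/- retina 31, which had the highest cone levels at 4 months, the mutant's median was -0.13, and without retina 4 it was -0.18. Against controls, 7 of the 13 were lower at 4 months (1.54% of all genes were lower and 1.71% higher) and 7 at 6 months (1.46% lower and 0.905% higher) at an adjusted p below 0.05, and 0 were higher at either age. At an unadjusted p below 0.05, 1 of the 13 was higher than controls at each age, beside 1060 and 644 of all 11274 genes. The difference was below 0 for 10 of the 13 at 4 months and 12 at 6 months, beside 4924 and 5564 of all genes.

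Opn1sw, the short-wavelength cone opsin, had the lowest levels among them. Its ratios were 0.0885, 0.0763 and 0.0545 at 4 months and 0.0476, 0.0677 and 0.0448 at 6 months, and the groups overlapped. The log2 change was -0.45 ± 0.24 (adjusted p = 0.549, limma), while the difference from controls was -4.91 at 4 months (adjusted p = 9.24e-09, limma) and -5.45 at 6 months (adjusted p = 1.92e-09, limma). At 2 months its RPE65-/- ratios had been 0.226 to 0.318. Opn1mw, the middle-wavelength opsin, was at 0.562, 0.950 and 0.691 and then at 0.470, 0.661 and 0.608, a change of -0.32 ± 0.30 with overlapping groups.

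Several transduction genes of cones gave values of similar size. Gnb3 of the same list was not low. Its RPE65-/- ratios ran from 1.04 to 1.72 at 4 months and from 1.30 to 1.41 at 6 months, with overlap. Gnat2, the cone transducin alpha subunit, was at 0.438, 0.614 and 0.569 at 4 months and at 0.417, 0.425 and 0.405 at 6 months. Its groups did not overlap, as for 2 of the 13 cone genes and 17.3% of all genes on the lower side. The change of Gnat2 was -0.36 ± 0.17 (adjusted p = 0.487, limma). Pde6h, the inhibitory subunit of the cone phosphodiesterase, was at 0.346, 0.584 and 0.461 and then at 0.287, 0.359 and 0.371, with overlap and a change of -0.43 ± 0.20. Arr3, the cone arrestin, was at 0.431, 0.769 and 0.543 and then at 0.332, 0.473 and 0.387, with overlap and a change of -0.52 ± 0.24, and its other probe sets gave -0.64 and -0.04. These 3 were the cone genes with an unadjusted p below 0.05 for a lower level, 3 of 13 beside 8.35% of all genes, and none passed. Pde6c, the catalytic subunit, was at -0.30 ± 0.24. None of the 13 differed between genotypes in its change at an unadjusted p below 0.05 (3.36% of all genes did), with a median difference of -0.23.

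**Figure D3:**
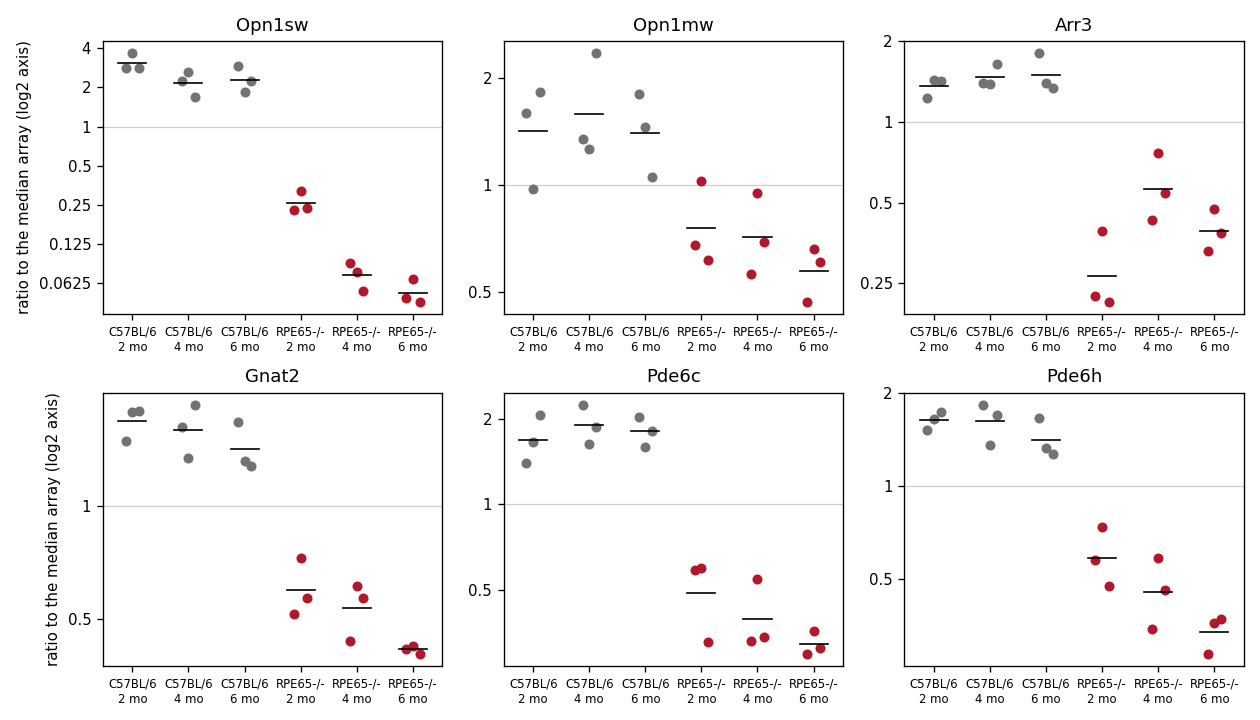
Ratio to the median array on a log2 axis for 6 cone genes, with 1 point per array (3 per group) and a line at the geometric mean. Every RPE65-/- array lies below every C57BL/6 array for Opn1sw, Arr3, Gnat2, Pde6c and Pde6h, and the step from 4 to 6 months is small beside that gap.

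Rod genes gave smaller differences. Of 17 listed, 15 were tested, 0 passed, and 0 had an unadjusted p below 0.05 in the mutant from 4 to 6 months. Their changes ran from -0.26 to 0.12 with a median of -0.07, beside -0.08 over all genes and -0.13 for the same genes in controls. The 28 tested genes that rods and cones share had a median of -0.09 and 1 gene with an unadjusted p below 0.05, on the lower side, where 8.35% of all genes lay. It was Rp1l1, a protein of the photoreceptor axoneme. Its change was -0.35 ± 0.15 in the mutant and -0.48 in controls.

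Inner retinal neurons gave few differences, and none passed. The 13 tested ganglion cell genes had a median log2 change of 0.08, with 4 below 0, where 7390 of all 11274 genes lay. For a higher level, 3 of the 13 had an unadjusted p below 0.05, beside 1.84% of all genes. Opn4, the melanopsin of intrinsically photosensitive ganglion cells, was at 0.521, 0.555 and 0.911 at 4 months and at 1.38, 1.02 and 1.12 at 6 months, with no overlap. Its log2 change was 0.86 ± 0.28 (adjusted p = 0.319, limma) in the mutant and -0.06 in controls. Thy1, a surface protein of ganglion cells, was at 0.32 ± 0.14 and Sncg, gamma-synuclein, at 0.33 ± 0.14, and in controls at 0.42 and 0.23. The largest value of the list was on the other side: Pou4f1, a transcription factor of ganglion cells, was at 0.942, 1.06 and 0.787 and then at 0.573, 0.350 and 0.552, with no overlap and a change of -0.94 ± 0.44 (adjusted p = 0.489, limma). Its other probe set gave -0.17, and 17.3% of all genes lay without overlap on the lower side. Of 11 tested ON bipolar genes 0 were higher and 2 lower at an unadjusted p below 0.05, with a median of 0.08. Over all genes 1.84% were higher and 8.35% lower at that level. The 16 tested amacrine genes had a median of -0.07, with 10 below 0, 2 higher and 1 lower at that level. Tac1, the substance P precursor of some amacrine cells, was at 0.697, 0.508 and 0.621 and then at 0.912, 0.776 and 1.15, with no overlap and a change of 0.63 ± 0.19 that did not pass (adjusted p = 0.316, limma). The control change was -0.33. Dab1, an adaptor of the reelin pathway in the same list, was at -0.45 ± 0.16, and its other probe sets gave 0.24, 0.12 and -0.30.

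Genes induced by neuronal activity had values mostly above 0 in the mutant, and none passed. Of 10 tested immediate early genes, 9 had a change above 0, while 7390 of all 11274 genes were below 0. The median was 0.17, against -0.07 in controls and -0.08 over all genes. The sign depended on the probe set for some of these genes. Other probe sets gave -0.52, 0.17 and -0.51 for Nr4a2 (0.28 on the one used). They gave -0.21 for Jun (0.04 on the one used) and -0.03 for Btg2 (0.14 on the one used). At an unadjusted p below 0.05, 2 of the 10 were higher and 0 lower, beside 1.84% and 8.35% of all genes. Egr1 was at 0.541, 0.312 and 0.346 at 4 months and at 0.764, 0.582 and 0.810 at 6 months, with no overlap, a change of 0.88 ± 0.37 (adjusted p = 0.457, limma). Dusp1, a phosphatase of MAP kinases, was at 0.42 ± 0.17, and its control change was -0.22. Fos was at 0.497, 0.468 and 0.373 and then at 0.496, 0.642 and 0.575, with overlap, a change of 0.36 ± 0.19. Fos stayed below the controls at both ages, by -1.51 at 4 months (adjusted p = 0.000185, limma) and -0.99 at 6 months (adjusted p = 0.00722, limma).

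No glial stress gene passed between the ages. Of 24 listed gliosis and stress genes 18 were tested, and the median change was -0.10, with 1 gene higher and 2 lower at an unadjusted p below 0.05 (1.84% and 8.35% of all genes). Gfap, the intermediate filament that reactive Müller glia express, was at 0.963, 1.28 and 1.67 at 4 months and at 1.37, 1.32 and 2.44 at 6 months, with overlap, a change of 0.37 ± 0.50. Edn2, endothelin-2, a photoreceptor injury signal, was at 1.31, 2.97 and 2.34 and then at 1.92, 1.74 and 1.501, a change of -0.29 ± 0.65. It exceeded the controls at both ages, by 3.48 at 4 months (adjusted p = 0.00557, limma) and 3.20 at 6 months (adjusted p = 0.0114, limma). Lifr, a subunit of the LIF receptor, was at 1.14, 0.977 and 1.05 and then at 0.692, 0.740 and 0.773. Its groups did not overlap, as for 17.3% of all genes on the lower side. Its change was -0.52 ± 0.16 (adjusted p = 0.317, limma), the controls' change was -0.37, and its other probe set gave 0.00 in the mutant. The 14 Müller glia genes had a median of -0.08.

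Of 22 listed interferon-responsive genes 13 were tested, and none passed from 4 to 6 months in either genotype or for the difference between genotypes. In the mutant 0 of the 13 had an unadjusted p below 0.05 in either direction, and the median change was -0.11. In controls 8 of the 13 did, all higher, beside 4.01% of all genes. The median of the 13 was 0.75 there, with 1 below 0, beside 6271 of all 11274 genes. The difference between genotypes was below 0 for all 13, beside 6603 of all 11274 genes. On that side 7 of the 13 had an unadjusted p below 0.05, beside 2.07% of all genes. The list itself was not tested as a whole.

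Gbp2, an interferon-induced GTPase, was at 1.14, 1.08 and 1.24 on the RPE65-/- arrays at 4 months and at 0.841, 1.13 and 1.20 at 6 months. On the controls it was at 0.656, 0.293 and 0.577 and then at 0.971, 1.03 and 2.89. The mutant's groups overlapped and the controls' did not. On the higher side in controls, 6 of the 13 tested interferon genes and 4.47% of all genes did not overlap. Irf7, a transcription factor of the response, was at 0.824, 1.01 and 1.16 and then at 1.005, 0.933 and 0.901 in the mutant, with overlap. In controls it was at 0.969, 1.12 and 1.20 and then at 1.46, 1.70 and 2.31, without overlap. The difference between genotypes was -1.71 ± 0.54 for Gbp2 and -0.78 ± 0.25 for Irf7 (adjusted p = 1 for each, limma). Ifi27, a mitochondrial interferon-induced protein, differed by -1.34 ± 0.46 between genotypes (its other probe set gave -0.53 in the mutant, against 0.09), and Ifit3, which binds viral RNA complexes, by -0.89 ± 0.28.

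Control retina 3 at 6 months had the highest interferon levels of all arrays, with a list mean of 1.02 against 0.42 and 0.13 on the others of that group, and without it the control median was 0.55. The same array was also the highest of the 18 for microglia genes (list mean 0.75), complement genes (0.81) and antigen presentation genes (0.90). In controls the median change was 0.38 for 5 microglia genes, 0.35 for 5 complement genes, 0.57 for 15 pigment epithelium genes and 0.36 for 14 matrix genes, and 0.00, 0.03, -0.06 and -0.02 in the mutant. Their part in the interferon values was not tested. The interferon list means of the RPE65-/- arrays ranged from -0.42 to 0.31 at 4 months and from -0.23 to 0.10 at 6 months. All 3 control arrays at 6 months were from females, and with sex as a covariate the control median was 0.77. Of 5 tested antigen presentation genes, 3 had a higher level in controls at an unadjusted p below 0.05 (4.01% of all genes), and the same 3 had a lower change in the mutant than in controls at that level (2.07%). H2-D1, a classical class I heavy chain, was one, at 0.87 ± 0.16 in controls (adjusted p = 0.0793, limma) and 0.24 ± 0.16 in the mutant. Its 3 other probe sets ran from -0.43 to 0.14 in the mutant, and signal from close class I relatives was not tested.

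**Figure D4:**
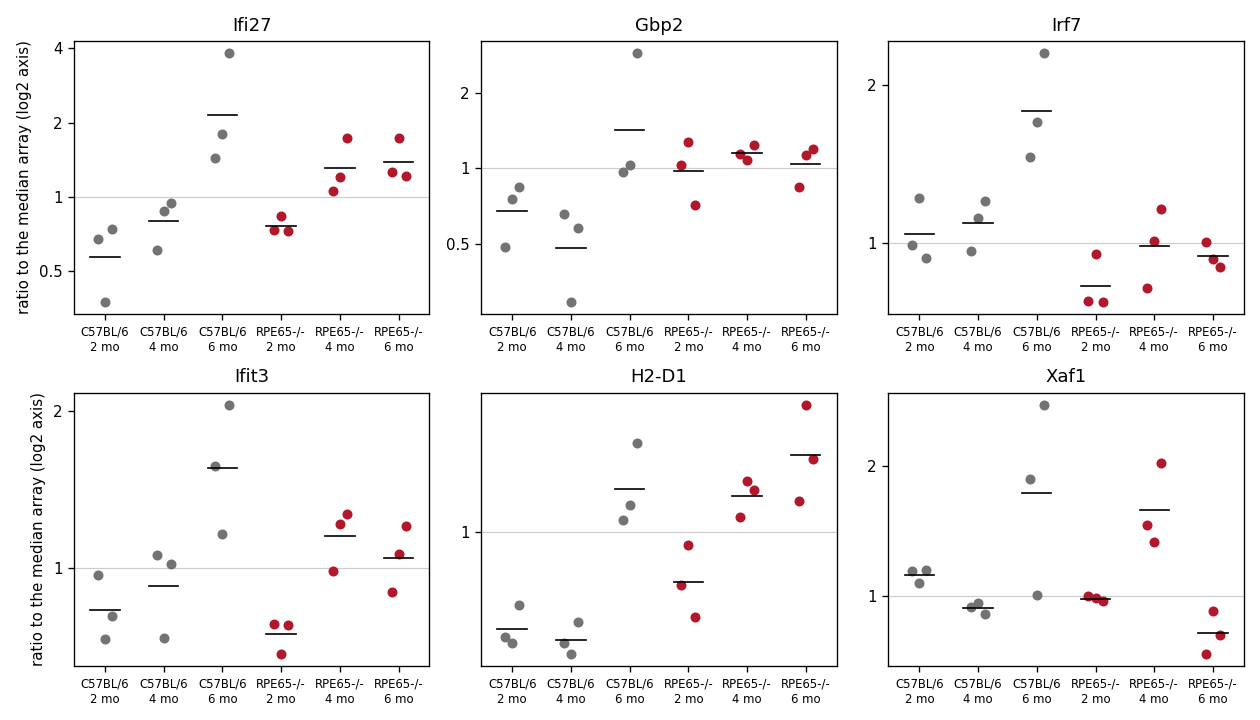
Ratio to the median array on a log2 axis for 6 genes, with 1 point per array (3 per group) and a line at the geometric mean. Ifi27, Gbp2, Irf7 and Ifit3 are from the interferon list and H2-D1 is from the antigen presentation list. Xaf1 is in neither list and was taken for its small p for the difference between genotypes. The C57BL/6 arrays at 6 months exceed those at 4 months for all 6 genes shown. This was so for 6 of the 13 tested interferon genes and 2 of 5 antigen presentation genes, beside 4.47% of all genes. The RPE65-/- arrays of these ages overlap for all 6 but Xaf1, which is lower at 6 months.

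After Pttg1, the genes of smallest p for the difference between genotypes were taken in each direction, and none of them passed. Gpr135, an orphan receptor, was at 0.722, 1.01 and 0.460 and then at 0.354, 0.437 and 0.309 in the mutant, against 1.05 to 1.12 and then 1.73 to 2.25 in controls, without overlap in either genotype. Its difference was -1.76 ± 0.33 (adjusted p = 0.262, limma), and another of its probe sets gave 0.06. Xaf1, an interferon-induced partner of XIAP, was at 1.46, 1.33 and 2.03 and then at 0.732, 0.920 and 0.808 in the mutant. In controls it was at 0.941, 0.959 and 0.906 and then at 1.87, 1.003 and 2.78, with no overlap in either genotype and a difference of -1.84 ± 0.36 (adjusted p = 0.262, limma). Without control retina 2 at 6 months, the difference for Xaf1 passed at -2.24 (adjusted p = 0.00126).

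The other values on the lower side were -0.78 ± 0.15 for Insl5, an insulin-like peptide hormone, -0.91 ± 0.20 for Cd302, a C-type lectin, and -1.15 ± 0.26 for Ppm1f, a protein phosphatase. On the higher side they were 0.96 ± 0.22 for P2rx4, an ATP-gated cation channel, 1.22 ± 0.30 for Nes, the intermediate filament nestin, and 1.21 ± 0.31 for Neurod2, a neuronal transcription factor. For Neurod2 the mean over its probe sets gave -0.24, the opposite sign. Another probe set of P2rx4 gave a change of -0.02 in the mutant, against 0.28 on the one used.

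Another 6 genes lay below an adjusted p of 0.1 in the mutant from 4 to 6 months without passing, and the ones described here were chosen after their values were seen. Arhgdib, a regulator of small GTPases known from blood cells, was at 0.998, 0.992 and 1 at 4 months and at 0.377, 0.541 and 0.578 at 6 months, with no overlap. Its change was -1.02 ± 0.17 (adjusted p = 0.059, limma) in the mutant and -0.25 in controls. On the lower side 17.3% of all genes did not overlap. Dyrk1a, a protein kinase, was at 1.04, 1.22 and 1.15 and then at 0.731, 0.675 and 0.761, a change of -0.65 ± 0.11 (adjusted p = 0.059, limma), and the controls' value was -0.46. The 2 other probe sets of Dyrk1a gave -0.04 and 0.16, so its probe sets disagreed. Srbd1 was at 0.725, 0.498 and 0.834 and then at 1.30, 1.48 and 1.43, a change of 1.07 ± 0.20 (adjusted p = 0.0837, limma), against 0.07 in controls, and its other probe set gave 0.18.

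Over all genes, the differences between the ages were small and leaned downward in both genotypes. In the mutant 941 genes were lower at an unadjusted p below 0.05 and 207 higher. The arrays did not overlap for 1949 genes on the lower side (17.3%). The median change of all genes was -0.08 and the central 90% lay between -0.45 and 0.33. The lean followed brightness. With the genes in 4 equal groups by signal, the median change was -0.02 in the dimmest and -0.11 in the brightest, and the share lower at an unadjusted p below 0.05 was 4.40% and 11.9%. With arrays centred or quantile-normalised the median moved to -0.02 or about 0, by less than 0.1, and 6 genes passed, 3 higher and 3 lower. With arrays weighted by their agreement within groups, 250 genes passed, 33 higher and 217 lower.

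**Figure D5:**
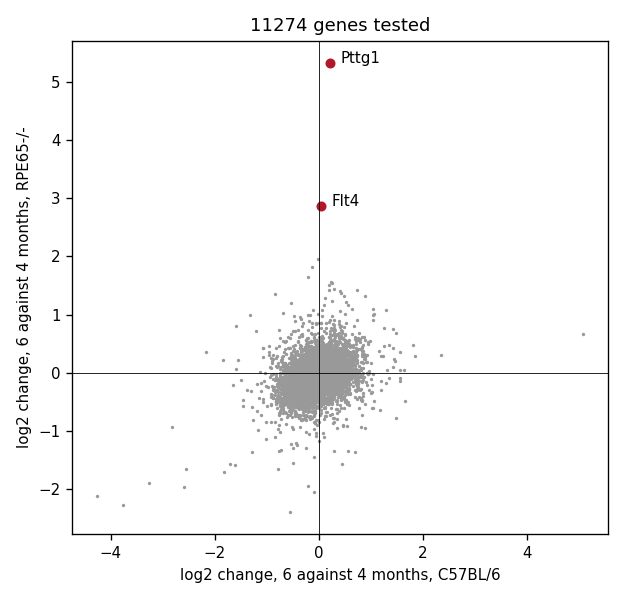
Log2 change from 4 to 6 months of each of 11274 genes in C57BL/6 (horizontal axis) and RPE65-/- (vertical axis), with 3 arrays per group and the 2 genes that passed in RPE65-/- marked. Pttg1 and Flt4 stand above the cloud, near 0 on the horizontal axis.

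The 2 genotypes share no arrays, so their changes could be set side by side. Of the genes lower in the mutant at an unadjusted p below 0.05, 343 were also lower in controls, 36.5% of the mutant's and 36.2% of the controls' list (the latter 8.4% of all genes). On the higher side 40 genes were shared, 19.3% and 8.85%, and 9 genes were past this level in opposite directions. Across genes the 2 changes had a Pearson r of 0.37, and 0.59 over the 5637 genes of higher signal. Genes are not independent replicates, and all arrays of 1 age shared the level of raw signal given above. Fmr1, the fragile X protein, is an example, at 1.23, 1.19 and 1.06 and then at 0.865, 0.767 and 0.852 in the mutant. Its change was -0.49 ± 0.11 in the mutant and -0.54 in controls, while its other probe sets gave 0.17 and -0.28 in the mutant. Prdx3, the mitochondrial peroxiredoxin, was at -0.53 ± 0.12 and -0.40. Neither gene passed in either genotype. Which part of such shared changes came from age and which from the arrays was not tested.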

How the data were processed

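The deposited values were ratios on a linear scale. For 54.3% of probe sets the median over 18 arrays was 1, and for the others, of low signal, it was below 1 with another divisor, as the values showed. Per the submitters' processing notes, RMA applied to all 18 samples and GCOS to 16, and neither a version nor an order was given. Array signals were recovered from the steps in the ratios and used for choosing probe sets and as an alternative scale.

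Gene names came from the platform annotation: 34945 probe sets named 1 gene, 932 several and 9160 none, and 64 control sets were left out. The brightest probe set with a median of 1 and a single gene stood for each gene. The log2 ratio was fitted with limma 3.58.1 in R 4.3.3 (6 group means, 12 residual degrees of freedom, constant prior), and p-values were adjusted with Benjamini-Hochberg at a threshold of 0.05. No set test was run. Errors are SE of log2 changes or SD of ratios. The number of arrays limits the precision. The fit was tested on simulated data.

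Named genes were Rpe65, up to 15 per direction past the threshold with arrays that did not overlap, the 5 of smallest p per direction for the difference between genotypes, and members of gene lists. The neighbours on chromosome 11 and the shared examples were added after their values were seen. The comparison and the lists were chosen with earlier results of these data known. Alternatives concerned the limit on low values, scale, normalization, arrays in the fit, prior, array weights, probe set rule, minimum fold, adjustment, covariates, and each array left out. Sequences came from RefSeq (GRCm38.p6). Python 3 handled tables and figures.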

Additional observations from a re-analysis of the deposited data

Results flagged for a closer look

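The change from 4 to 6 months differed between genotypes for Pttg1, by 5.09 on the log2 scale (adjusted p = 0.000127, limma's test of the difference itself). All 3 RPE65-/- arrays at 6 months exceeded all 3 at 4 months, and the C57BL/6 arrays changed by 0.22. The cause was not tested.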

How the results depend on the processing

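The results were recomputed under 15 other settings, with each of the 18 arrays left out in turn, and under 3 alternatives chosen after seeing the data (a trended prior that was not robust, probe sets in place of genes, and sex as a covariate without Xist and Y-linked genes). No called value changed sign. The setting without probe sets open to cross-hybridisation left out all sets with a letter suffix, _a_at sets included. The change of Pttg1 in the mutant passed in 32 of 35 alternatives (1.88 to 5.86) and that of Flt4 in 31 of 34 (0.68 to 3.16). For the 2 genes of RPE65-/- at 6 against 4 months, the count became 1 with 16 added to the signal and without probe sets open to cross-hybridisation, 6 with quantile normalization or centring, 0 with the compared arrays alone or a trended and robust prior, 250 with array weights (33 higher, 217 lower), 4 with the lens covariate and 4 for probe sets. With 1 array left out it ran from 2 to 7, at 7 without the RPE65-/- retina 3 of 2 months and 4 without RPE65-/- retina 5 or 6 of 6 months or control retina 1 of 6 months. For controls at 6 against 4 months (0 genes), it became 33 in the brighter part of the genes, 4 with 16 added, 15 with quantile normalization, 14 with centring, 3 with array weights, 1 with the pigment epithelium covariate and 8 for probe sets, and ran from 0 to 24 with 1 array left out, at 24 without control retina 1 of 6 months and 6 without control retina 24 of 4 months. For the difference between genotypes (1 gene), it became 3 with centring, 2 with the mean of probe sets, 4 for probe sets, and 0 with either trended prior or without probe sets open to cross-hybridisation, and ran from 1 to 3 with 1 array left out, at 3 without RPE65-/- retina 33 or control retina 17 of 4 months and 2 without control retina 1, 2 or 3 of 6 months. RPE65-/- against controls at 4 months (367 genes) gave 224 with no limit on low values, 174 with the compared arrays alone, 57 with a 1.5-fold minimum, 124 with Benjamini-Yekutieli adjustment and 746 for probe sets, and from 223 to 382 with 1 array left out, at 223 without RPE65-/- retina 33 and 228 without retina 31. At 6 months (267 genes) it gave 421 with quantile normalization, 635 with array weights, 49 with the minimum fold, 113 with Benjamini-Yekutieli adjustment and 532 for probe sets, and from 172 to 324 with 1 array left out, at 172 without RPE65-/- retina 6. The cause of these shifts was not tested. No paired analysis was possible because the retina numbers of the groups compared are not shared between 4 and 6 months.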
